A study of Mus musculus with 12 samples.

Results

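Otud3 and the other measured members of a list of 9 genes of the ovarian tumour (OTU) deubiquitinase family (Otud1, Otud4, Otud5, Otud6b, Otud7b, Otub1, Otub2 and Yod1) were followed in mouse spleen. They were found by exact gene symbol in the annotation of the arrays, which gave 22 of the 45037 probe sets that are not controls. Of these, 2 measured Otud3 and are described separately, and no probe set named a member together with another gene. The 9 are among 18193 genes named by a probe set of 1 gene. Otud3 was selected on its difference between the BALB/c colonies in these same arrays. Its colony difference is therefore given as a description with no test. The other genes were taken for their family, though with earlier results of these data known.

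Spleen RNA was hybridized to 12 whole-genome oligonucleotide arrays, 3 in each group and each from a separate animal. The groups were PG-immunized BALB/cByJ, PG-immunized BALB/cJ, naïve BALB/cByJ and naïve BALB/cJ, all age-matched females without arthritis. BALB/cJ and BALB/cByJ are the major sublines of the BALB/c strain, both supplied by The Jackson Laboratory. Immunized mice had received a single intraperitoneal injection of cartilage proteoglycan (PG), 100 μg of protein by the labels, in 2 mg of the adjuvant dimethyldioctadecyl-ammonium bromide. Naïve mice were untreated, and spleens were taken on day 12. Every value below is a log2 value from which the median of the 12 arrays had been subtracted for that probe set. A value of 0 is the median array, and signal levels are not known. Markers of the spleen could therefore not be checked for presence, and levels of different probe sets cannot be set against each other. Immunization was not separated from the order of sample numbers, which were 10 to 15 in naïve and 29 to 50 in immunized mice. Nor was colony separated from it in naïve mice, with 10 to 12 in BALB/cByJ and 13 to 15 in BALB/cJ. In immunized mice the numbers of the colonies were mixed, with 29, 31 and 48 in BALB/cByJ and 33, 49 and 50 in BALB/cJ.

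Signs of other tissues were present in some arrays. Pigment cell markers were high in naïve BALB/cJ replicates 1 and 2, immunized BALB/cJ replicate 1 and immunized BALB/cByJ replicate 2, where Dct, an enzyme of melanin synthesis, was between 4.72 and 6.29. The median of 15 pancreatic markers was 2.11 in naïve BALB/cByJ replicate 1.

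Ubiquitin is a small protein that is attached to other proteins, singly or in chains, and marks them for degradation by the proteasome or changes their partners. Deubiquitinases remove it, and those of the OTU family are cysteine proteases, many of which prefer chains of a particular linkage. Several restrain inflammatory signalling in immune cells by trimming chains from adaptor proteins of the NF-κB and interferon pathways. OTUD3, studied mostly in human cells, is a deubiquitinase of the cytoplasm with substrates in growth and antiviral signalling.

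The starts of the 2 genes on which most of the results turn are shown to place them in the genome. RefSeq promoters of the C57BL/6J assembly GRCm38.p6 were found for 7 of the 9 members. Each runs from 250 bases before to 50 bases after a transcript start, 5′ to 3′, and the capitals mark the GC box GGGCGG on either strand. The sequence is that of the reference strain. BALB/c sequence was not analysed here, and neither was the position of the probes.
Otud3, chr4:138913919-138914218, minus strand: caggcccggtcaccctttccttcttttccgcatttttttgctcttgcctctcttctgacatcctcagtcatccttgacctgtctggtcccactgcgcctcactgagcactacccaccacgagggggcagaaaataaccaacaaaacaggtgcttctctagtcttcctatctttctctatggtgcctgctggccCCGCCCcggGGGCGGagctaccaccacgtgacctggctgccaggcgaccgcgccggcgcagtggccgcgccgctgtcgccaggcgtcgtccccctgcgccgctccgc
Yod1, chr1:130717077-130717376, plus strand: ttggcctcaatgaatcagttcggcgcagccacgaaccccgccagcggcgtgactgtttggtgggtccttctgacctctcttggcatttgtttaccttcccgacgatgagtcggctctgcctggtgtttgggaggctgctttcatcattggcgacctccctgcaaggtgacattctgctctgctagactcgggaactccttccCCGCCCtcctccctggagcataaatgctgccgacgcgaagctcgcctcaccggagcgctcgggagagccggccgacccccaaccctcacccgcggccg
The Otud3 window held 22 CG dinucleotides and 2 GC boxes, and the Yod1 window held 24 and 1. The median over 32851 such windows was 7 CG dinucleotides, and 35.7% of them held a GC box on either strand. The motif TATAAA, searched on both strands, was in neither window and in 13.6% of all windows. AGATAA, a core motif of GATA factors, was likewise in neither and in 11.2% of all, again on both strands.

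By probe set 1436571_at, Otud3 lay far lower in spleens of BALB/cByJ mice than in those of BALB/cJ mice, with and without immunization. In immunized mice the values were -2.09, -1.80 and -2.59 in BALB/cByJ and 1.54, 1.66 and 1.66 in BALB/cJ. In naïve mice they were -2.22, -1.73 and -1.54 in BALB/cByJ and 1.55, 1.65 and 1.60 in BALB/cJ. All 6 BALB/cByJ arrays lay below all 6 BALB/cJ arrays, with nothing in between. The log2 difference, BALB/cByJ minus BALB/cJ, was -3.78 (95% confidence interval -4.19 to -3.38) in immunized mice, a level 13.8-fold lower in BALB/cByJ. In naïve mice it was -3.43 (-3.83 to -3.03), or 10.8-fold lower. By size, this difference was the third of all probe sets in immunized and the seventh in naïve mice (rank 3 and rank 7). These folds are ratios of array signal. As the signal level is unknown, how near the BALB/cByJ arrays lay to background was not tested.

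The levels of this probe set formed pairs by colony and not by immunization. From low to high, the group means were -2.16 ± 0.399 in immunized BALB/cByJ, -1.83 ± 0.352 in naïve BALB/cByJ, 1.60 ± 0.0521 in naïve BALB/cJ and 1.62 ± 0.0726 in immunized BALB/cJ (SD, n = 3 each). Within each colony the arrays of immunized and naïve mice overlapped. The arrays of BALB/cByJ were also more spread out than those of BALB/cJ, in both states. The lowest value, -2.59, was that of immunized BALB/cByJ replicate 3, and the second lowest, -2.22, that of naïve BALB/cByJ replicate 1.

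**Figure D1:**
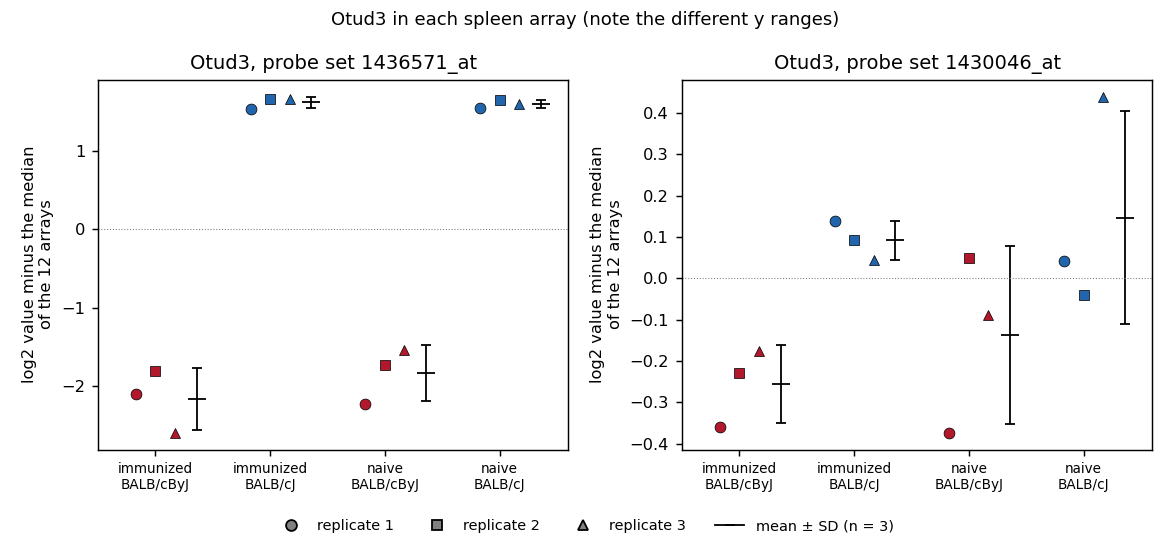
Each point is 1 array (log2 value minus the median of the 12 arrays, y axis) and each bar the mean ± SD of the 3 arrays of a group, for the 2 Otud3 probe sets on y axes of different range. By 1436571_at the BALB/cByJ arrays sit between -2.59 and -1.54 and the BALB/cJ arrays between 1.54 and 1.66, whereas by 1430046_at the naïve colonies overlap.

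The second Otud3 probe set, 1430046_at, showed the same direction with a much smaller difference. In immunized mice it was at -0.36, -0.23 and -0.18 in BALB/cByJ and at 0.14, 0.09 and 0.04 in BALB/cJ, with no overlap. In naïve mice it was at -0.37, 0.05 and -0.09 in BALB/cByJ and at 0.04, -0.04 and 0.44 in BALB/cJ, and the colonies overlapped. The log2 difference was -0.35 (95% confidence interval -0.63 to -0.07) in immunized and -0.28 (-0.57 to -0.003) in naïve mice, and -0.32 (-0.51 to -0.12) over both states, against -3.61 (-3.89 to -3.32) by 1436571_at. The naïve difference of 1430046_at was -0.07 with array weights and -0.14 without naïve BALB/cJ replicate 3. Across the 12 arrays the probe sets had a Pearson r of 0.75, which is given as a description, since all points share the division by colony. Averaged over both probe sets, the Otud3 difference over both states was -1.96 (SE 0.0897).

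Immunization, which played no part in the choice of Otud3, was tested for both of its probe sets. Neither passed the test in either colony. By 1436571_at, the log2 difference of immunized minus naïve mice was -0.33 (95% confidence interval -0.74 to 0.07, adjusted p = 0.652 from limma) in BALB/cByJ and 0.02 (-0.38 to 0.42, adjusted p = 0.989) in BALB/cJ. By 1430046_at it was -0.12 (-0.40 to 0.16) in BALB/cByJ and -0.05 (-0.34 to 0.23) in BALB/cJ. The responses of the colonies differed by -0.35 (-0.93 to 0.22, adjusted p = 0.792) by the first and by -0.06 (-0.46 to 0.34, adjusted p = 0.964) by the second.

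The genes whose values followed Otud3 most closely over the 12 arrays were other genes that separate the colonies. The measure was Pearson's r with probe set 1436571_at over probe sets that name 1 gene. It was highest for Arl2bp (r = 0.99), Acads (0.99), Rtf2 (0.98), Cd207 (0.97) and Tfe3 (0.96). It was lowest for Glo1 (-0.99), Zhx2 (-0.99), Neto1 (-0.99), Rexo4 (-0.98) and Ndufa3 (-0.98). Arl2bp encodes a binding partner of a small GTPase, Acads an acyl-CoA dehydrogenase of the mitochondrion and Glo1 an enzyme that detoxifies methylglyoxal. For all 10 genes the points share the division of the arrays by colony, with naïve differences between -2.74 and 2.86. Within the 6 BALB/cByJ arrays r ranged from -0.90 for Ndufa3 to 0.47 for Arl2bp. Within the 6 BALB/cJ arrays it ranged from -0.79 for Zhx2 to 0.70 for Cd207. By the gene table, none of the 10 lies on chromosome 4, which holds Otud3.

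The neighbours of Otud3 showed no colony difference of comparable size. Of the 20 nearest protein-coding genes, 10 on either side by the gene order of GRCm38.p6, 17 were measured by 34 probe sets. In naïve mice limma called 2 probe sets lower in BALB/cByJ and none higher, against 1.71% of all probe sets lower and 2.68% higher. Over both states 2 were lower and none was higher, against 1.58% and 3.04% of all. In immunized mice none was called, against 0.12% of all. The naïve differences ranged from -0.80 to 0.26 with a median of -0.03, beside a median of -0.01 over all probe sets. In immunized mice they ranged from -0.39 to 0.10.

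The nearest neighbour, Pla2g2e, a secreted phospholipase A2, was one of those called. It was at -0.33, -0.21 and -0.07 in immunized BALB/cByJ and at 0.28, 0.23 and 0.07 in immunized BALB/cJ. In naïve mice it was at -0.53, -0.23 and -0.16 in BALB/cByJ and at 0.77, 0.07 and 0.13 in BALB/cJ. Thus all 6 BALB/cByJ arrays lay below all 6 BALB/cJ arrays, with a gap between -0.0711 and 0.0711. Of all probe sets, 11.9% were lower in BALB/cByJ without overlap in naïve mice and 6.88% in immunized mice. The share that did so in both states was not counted. The log2 difference was -0.63 (SE 0.163, adjusted p = 0.0487 from limma) in naïve, -0.39 (adjusted p = 0.592) in immunized mice and -0.51 (adjusted p = 0.0276) over both states. Its naïve call was lost without any 1 of the 12 arrays except naïve BALB/cJ replicate 3 (adjusted p = 0.147 without naïve BALB/cJ replicate 1, where the difference was -0.41). Quantile normalization lost it too (adjusted p = 0.0893). With the mean of the erythroid markers as a covariate the naïve difference of Pla2g2e was -0.75 (adjusted p = 0.649), and that over both states -0.59 (0.626). The Pla2g2e call over both states was also lost without immunized BALB/cByJ replicate 2 (0.0689) or immunized BALB/cJ replicate 1 (0.0642). The other gene called was Camk2n1, an inhibitor of a calcium-dependent kinase, 9 genes away, at -0.80 (SE 0.153, adjusted p = 0.0157) in naïve mice by 1 of its 2 probe sets. The other probe set was at -0.03 (adjusted p = 0.917). The naïve call of Camk2n1 was lost without naïve BALB/cByJ replicate 3 (adjusted p = 0.0757), naïve BALB/cJ replicate 1 (0.0841) or replicate 2 (0.0895), and with the mean of the erythroid markers as a covariate the difference was -0.27 (adjusted p = 0.747).

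The other near neighbours were not called. Pla2g5, a further phospholipase A2 and the third gene on the side of Pla2g2e, was at -0.30 (95% confidence interval -0.50 to -0.11, adjusted p = 0.0777) in naïve and -0.08 (-0.27 to 0.12) in immunized mice. Both probe sets of Pla2g2d, the next phospholipase A2 gene on that side, were below 0 in both states, at -0.22 (-0.41 to -0.03, adjusted p = 0.182) and -0.24 (-0.43 to -0.05, adjusted p = 0.155) over both, and did not pass the test. On the other side, Rnf186, a ubiquitin ligase, was at 0.21 (-0.11 to 0.52) in naïve and -0.02 (-0.34 to 0.29) in immunized mice. The probe sets of Tmco4, a membrane protein, were at 0.04 and 0.04 in naïve mice. Htr6, a serotonin receptor, was at 0.26 in naïve and -0.35 in immunized mice, and neither passed the test.

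**Figure D2:**
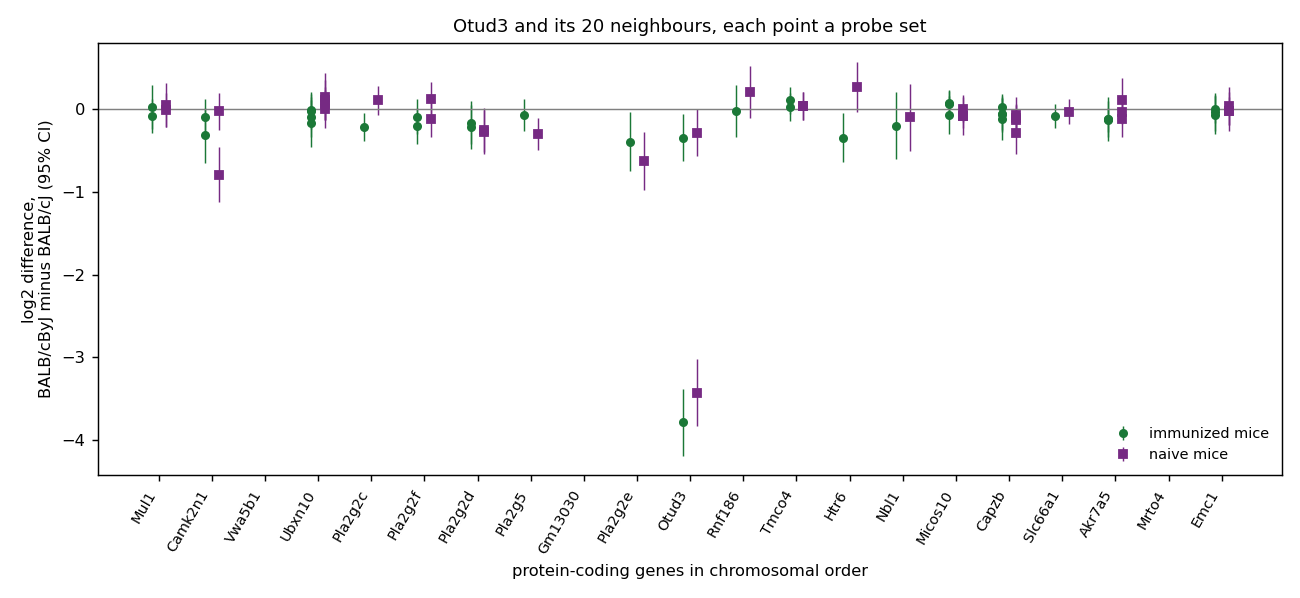
Points give the log2 difference of BALB/cByJ minus BALB/cJ (y axis) with its 95% confidence interval for each probe set of Otud3 and its 20 neighbours in chromosomal order (x axis), in immunized and naïve mice. Otud3 1436571_at stands at -3.78 and -3.43, and the neighbours' probe sets lie between -0.80 and 0.26.

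Among the other members, the colonies differed less, and those that passed the test were all higher in BALB/cByJ. In naïve mice 3 of the 20 probe sets were higher, 2 of Yod1 and 1 of Otud5, and there was no lower one. Over both states 4 were higher, the same 3 with 1 of Otub2. In immunized mice neither limma nor the variance analysis of the study's methods called any, and for 3 the unadjusted p was under 0.05, as for 7.92% of all probe sets. Over all probe sets, limma called 4.39% in naïve mice (2.68% higher and 1.71% lower), 4.62% over both states (3.04% higher and 1.58% lower) and 0.12% in immunized mice. In naïve mice the colonies did not overlap for 5 of the 20, all higher in BALB/cByJ, against 21.7% of all probe sets (9.76% higher and 11.9% lower). In immunized mice 2 were higher and 1 lower without overlap, against 15% of all (8.14% higher and 6.88% lower). The median difference of the 20 was 0.08 in naïve and 0.03 in immunized mice, against -0.01 and -0.01 over all probe sets.

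Yod1 encodes a deubiquitinase that works with the ATPase VCP to draw misfolded proteins out of the endoplasmic reticulum. Probe set 1460624_at gave 0.47, 0.29 and 0.54 for naïve BALB/cByJ, against -0.40, -0.57 and -0.14 for naïve BALB/cJ. In immunized mice it was at 0.03, 0.16 and 0.26 in BALB/cByJ and at -0.22, -0.03 and -0.57 in BALB/cJ. The colonies did not overlap in either state, and the naïve groups were further apart than the immunized ones. The log2 difference was 0.80 (SE 0.141, adjusted p = 0.0114 from limma) in naïve mice, 0.42 (SE 0.141, adjusted p = 0.512) in immunized mice and 0.61 (SE 0.0995, adjusted p = 0.00824) over both.

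By probe set 1436976_a_at Yod1 was at 0.80, 0.36 and 0.41 in naïve BALB/cByJ and at -0.20, -0.53 and -0.22 in naïve BALB/cJ. In immunized mice it was at -0.09, 0.04 and 0.41 in BALB/cByJ and at -0.04, 0.10 and -0.42 in BALB/cJ. The colonies were apart in naïve mice and overlapped in immunized mice. The difference was 0.84 (SE 0.169, adjusted p = 0.019) in naïve mice and 0.24 (adjusted p = 0.75) in immunized mice. The difference between the colonies' responses to immunization was -0.60 (95% confidence interval -1.12 to -0.08, adjusted p = 0.602) by 1436976_a_at and -0.39 (-0.82 to 0.05, adjusted p = 0.7) by 1460624_at, so the states were not shown to differ. The third probe set, 1439202_at, was at 0.04 (-0.18 to 0.26) in naïve and -0.05 (-0.27 to 0.17) in immunized mice. Its r with the other probe sets was -0.11 and 0.06, whereas theirs with each other was 0.92.

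Otub2 is a close relative of Otub1 and takes part in the response to DNA breaks. By probe set 1417575_at it was at 0.02, 0.00 and 0.62 in immunized BALB/cByJ and at -0.44, 0.06 and -0.90 in immunized BALB/cJ. In naïve mice it was at 0.00, 0.07 and 0.10 in BALB/cByJ and at -0.59, -0.75 and -0.31 in BALB/cJ. The colonies did not overlap in naïve mice, and in immunized mice BALB/cJ replicate 2 lay among the BALB/cByJ arrays. The difference was 0.60 (SE 0.217, adjusted p = 0.146) in naïve mice, 0.64 (SE 0.217, adjusted p = 0.516) in immunized mice and 0.62 (SE 0.153, adjusted p = 0.0386) over both. The other Otub2 probe set, 1417576_a_at, was at 0.37 (SE 0.2, adjusted p = 0.354) over both states.

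Otud5, also called DUBA, trims ubiquitin from the adaptor TRAF3 and so restrains type I interferon. Of its 4 probe sets, 1435573_at was called. It gave 0.32, 0.22 and 0.29 for naïve BALB/cByJ, against -0.19, -0.26 and 0.01 for naïve BALB/cJ. In immunized mice it was at -0.01, -0.04 and 0.20 in BALB/cByJ and at -0.15, 0.09 and -0.31 in BALB/cJ. The naïve colonies were apart and the immunized ones overlapped. The difference was 0.43 (SE 0.11, adjusted p = 0.0483) in naïve and 0.18 (SE 0.11, adjusted p = 0.718) in immunized mice. The other 3 probe sets lay between 0.07 and 0.22 in naïve mice and did not pass the test.

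Genes of red blood cell formation moved with these probe sets. The median of 17 measured erythroid markers, of 20 listed, was 0.158, 0.361 and 0.674 in naïve BALB/cByJ and -1.26, -1.50 and -0.292 in naïve BALB/cJ. In immunized mice it was -0.110, 0.120 and 0.506 in BALB/cByJ and -0.146, 0.171 and -0.969 in BALB/cJ. In naïve BALB/cJ replicates 1 and 2, 11 and 14 of the 17 genes lay more than 1 below the median array, and in immunized BALB/cJ replicate 3, 8 did. Over the 12 arrays, the r with the mean of the erythroid markers was 0.90 and 0.81 for the called Yod1 probe sets, 0.87 for Otub2 1417575_at and 0.86 for Otud5 1435573_at, where the 5th and 95th percentiles of all probe sets were -0.71 and 0.74. It was 0.44 for Yod1 1439202_at and -0.69 for Otud3 1436571_at. Cell division genes went the same way, with medians of 19 measured genes between 0.209 and 0.509 in naïve BALB/cByJ and between -0.925 and -0.372 in naïve BALB/cJ. The r with their mean was 0.92 and 0.84 for Yod1 1460624_at and 1436976_a_at, and 0.89 for Otub2 1417575_at. It was 0.86 for Otud5 1435573_at and -0.78 for Otud3 1436571_at. All these r are a description, since the naïve points share the division by colony. A fit with the cell division genes as a covariate was not run. In a whole spleen, fewer cells of a type and less RNA per cell cannot be told apart.

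**Figure D3:**
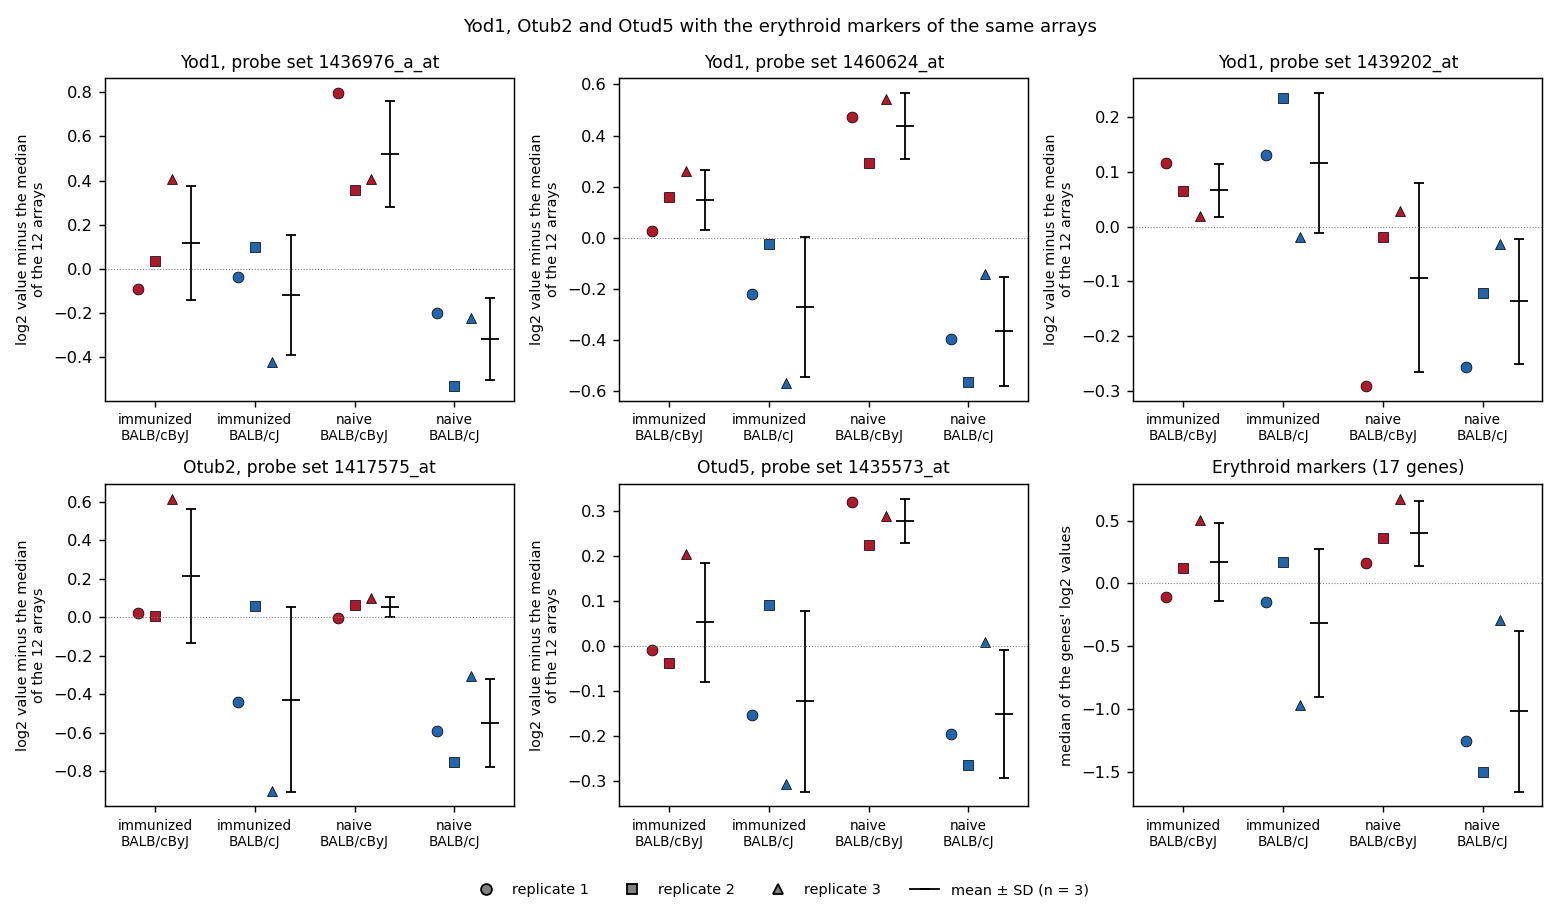
Each point is 1 array and each bar the mean ± SD of 3 arrays. The y axes, which differ in range, give the log2 value minus the median of the 12 arrays for the 3 Yod1 probe sets, 1 of Otub2 and 1 of Otud5, and, in the last panel, the median of 17 erythroid markers. Naïve BALB/cJ replicates 1 and 2 and immunized BALB/cJ replicate 3 are low in the marker panel (-1.26, -1.50 and -0.969) and in those of Otub2 and Otud5.

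With the mean of the erythroid markers of each array as a covariate, none of the other members was called, and the naïve difference was 0.26 (adjusted p = 0.703) for Yod1 1460624_at, 0.41 (0.731) for 1436976_a_at and 0.06 (0.939) for Otud5 1435573_at. That of Otub2 1417575_at over both states was 0.07 (0.914). Few probe sets of any kind were called with this covariate. They were 25 of 45037 in naïve mice and 47 over both states, against 1976 and 2081 without it. The Otud3 difference by 1436571_at stayed within its replicate spread in that fit. Both naïve Yod1 calls were also lost without naïve BALB/cByJ replicate 3 (adjusted p = 0.0619 for 1436976_a_at and 0.0591 for 1460624_at), BALB/cJ replicate 1 (0.0665 and 0.0628) or BALB/cJ replicate 2 (0.105 and 0.0723), where the differences remained between 0.71 and 0.90. Over both states 1460624_at was called without any 1 array (adjusted p between 0.00472 and 0.0303). The calls over both states of Yod1 1436976_a_at and Otud5 1435573_at were lost in 6 and 10 of the 12 such fits (adjusted p up to 0.0805 and 0.131). The naïve Otud5 call was lost without any array but naïve BALB/cJ replicate 3, immunized BALB/cByJ replicate 3 and immunized BALB/cJ replicates 2 and 3 (adjusted p up to 0.204). That of Otub2 over both states was lost without naïve BALB/cByJ replicates 2 or 3, naïve BALB/cJ replicates 1 or 2, immunized BALB/cByJ replicates 2 or 3 or immunized BALB/cJ replicates 1 or 3 (adjusted p up to 0.109). Without the 4 arrays high in pigment markers, which leaves naïve BALB/cJ with 1 array assumed to vary like the other groups, the naïve difference of Yod1 1460624_at was 0.58.

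The remaining members had small differences between the colonies. Otud1, which restrains innate immune signalling, was at -0.24 (95% confidence interval -0.53 to 0.05) in naïve and -0.17 (-0.46 to 0.11) in immunized mice. The 3 probe sets of Otud4, which binds DNA alkylation repair enzymes, lay between -0.17 and -0.01 in naïve and between -0.20 and -0.02 in immunized mice. Otud6b, linked to protein synthesis and proteasome assembly, was at -0.10 (-0.30 to 0.10) in naïve and at -0.10 (-0.29 to 0.10) in immunized mice. Otub1, which blocks ubiquitin-conjugating enzymes as well as cutting chains, was at 0.09 and 0.08 in naïve mice and at -0.29 and -0.03 in immunized mice by its 2 probe sets. The -0.29, of 1417705_at, rested on a value of -0.69 in immunized BALB/cByJ replicate 3, and the other 11 arrays lay between -0.20 and 0.23.

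Otud7b, or Cezanne, acts on TRAF3 in noncanonical NF-κB signalling, and 1 of its 4 probe sets showed opposite values in the colonies after immunization. Probe set 1429139_at was at 0.11, 0.07 and 0.22 in immunized BALB/cByJ and at -0.08, -0.03 and 0.07 in naïve BALB/cByJ. In BALB/cJ it was at -0.12, -0.23 and -0.24 in immunized and at -0.02, 0.02 and 0.09 in naïve mice. Immunized and naïve arrays did not overlap in either colony, and they were apart in opposite directions. In BALB/cByJ the gap was narrow, between 0.0720 in immunized replicate 2 and 0.0674 in naïve replicate 3. Such arrays did not overlap for 12.1% of all probe sets in BALB/cByJ and 17% in BALB/cJ. The difference of immunized minus naïve mice was 0.15 (SE 0.0748, adjusted p = 0.63 from limma) in BALB/cByJ and -0.23 (SE 0.0748, adjusted p = 0.41) in BALB/cJ. The responses differed by 0.37 (95% confidence interval 0.14 to 0.60, unadjusted p = 0.004 from limma, adjusted p = 0.505), which did not pass the correction over all probe sets. The differences of responses of the other 3 Otud7b probe sets were -0.11, -0.01 and 0.06.

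**Figure D4:**
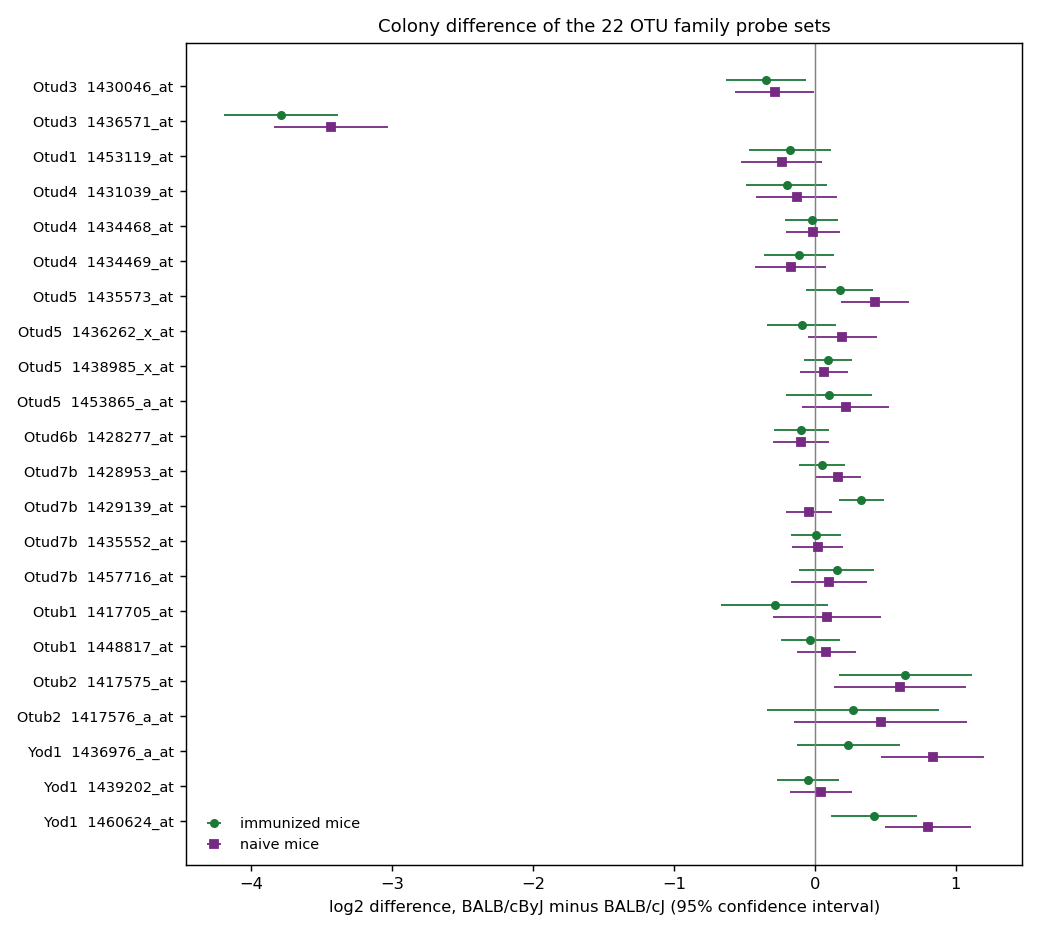
Points give the log2 difference of BALB/cByJ minus BALB/cJ (x axis) with its 95% confidence interval for the 22 probe sets of the 9 genes, in immunized and naïve mice. Otud3 1436571_at lies at -3.78 and -3.43, and the other 21 probe sets lie between -0.35 and 0.84.

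Immunization was not accompanied by a called difference in any of the 22 probe sets. In BALB/cByJ limma called none, against 0.0511% of all probe sets, and 1 reached an unadjusted p below 0.05, against 8.3% of all. In BALB/cJ none passed, against 0% of all probe sets, and 2 had such a p, against 9.19% of all. Over both colonies none passed, against 0.0466% of all, and 1 had such a p, against 9.91% of all. No probe set in the table was called for the difference of responses (0%), and 2 members had an unadjusted p below 0.05 for it, against 7.59% of all. The variance analysis of the study's methods gave no call for immunization among the 22 in either colony. The unadjusted values in BALB/cByJ were led by Yod1 1436976_a_at at -0.40 (95% confidence interval -0.77 to -0.04). Those in BALB/cJ were of Otud7b 1429139_at and of Yod1 1439202_at, at 0.25 (0.03 to 0.47). The arrays of immunized and naïve mice did not overlap for 3 members in BALB/cByJ and 3 in BALB/cJ, against 12.1% and 17% of all probe sets.

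**Figure D5:**
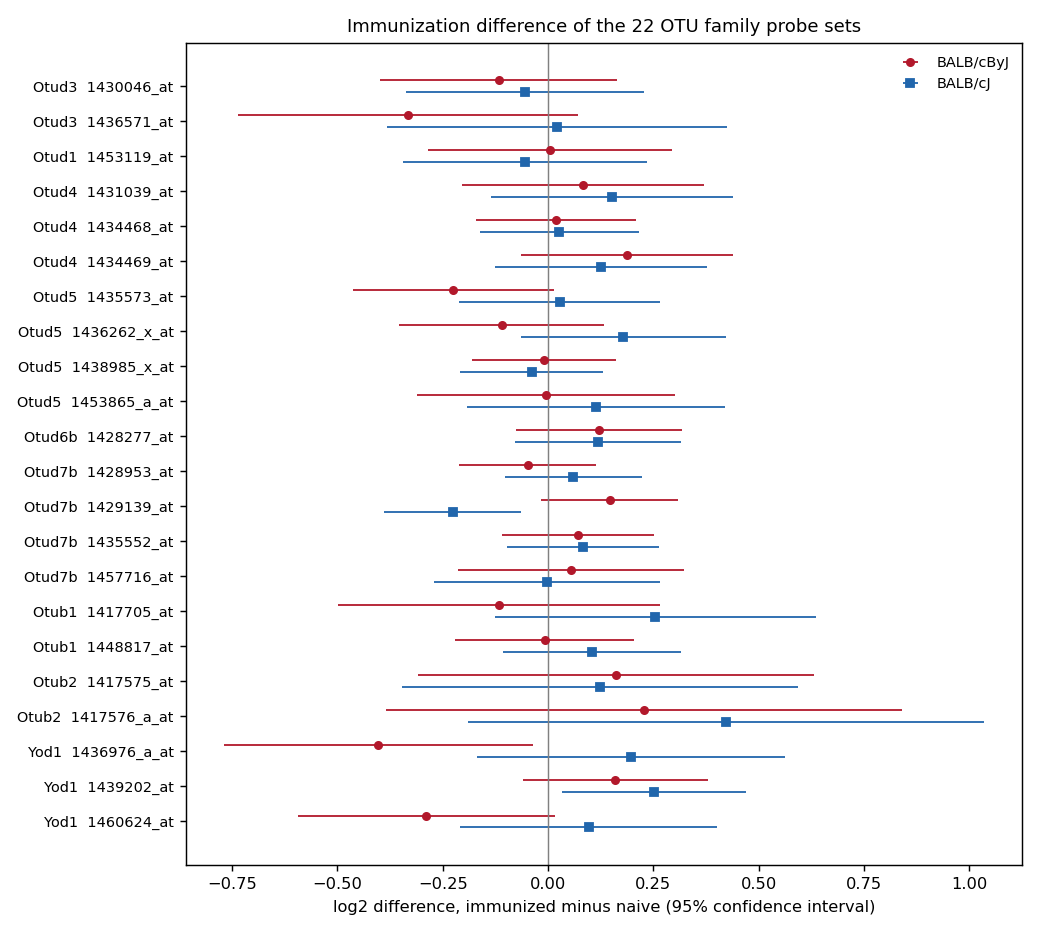
Points give the log2 difference of immunized minus naïve mice (x axis) with its 95% confidence interval for the same 22 probe sets, in BALB/cByJ and BALB/cJ. All lie between -0.40 and 0.42, and the Otud7b probe set 1429139_at lies at 0.15 in BALB/cByJ and -0.23 in BALB/cJ.

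The members also differed in how far they varied. Apart from Otud3 1436571_at, with a range of 4.26 over the 12 arrays, the widest ranges were those of Otub2 (1.52 and 1.29) and of the called Yod1 probe sets (1.33 and 1.11). The narrowest was that of Otud5 1438985_x_at, at 0.244. The median range of the 20 probe sets other than Otud3 was 0.523, against 0.468 over all probe sets, and the median standard deviation within groups was 0.148, against 0.129. Probe sets of 1 gene did not always vary together. The r between those of Otud7b lay between 0.05 and 0.29, that of the Otub1 pair was 0.75, that of the Otub2 pair 0.79, and that of Otud4 1431039_at with 1434469_at 0.88.

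Other genes of the ubiquitin system were called in the naïve colonies or over both states, all higher in BALB/cByJ. Of 7 other measured OTU genes with 16 probe sets, none was called in naïve or immunized mice by limma, and 1 probe set of Zranb1, a regulator of Wnt signalling, was higher in BALB/cByJ over both states at 0.22 (SE 0.0483, adjusted p = 0.0232). It was not called with the erythroid covariate, without the arrays high in pigment markers, or without naïve BALB/cJ replicates 1 or 2, immunized BALB/cByJ replicates 2 or 3 or immunized BALB/cJ replicate 3. Both probe sets of Tnfaip3 (A20), a brake on NF-κB, were at -0.33 (95% confidence interval -0.56 to -0.09) and -0.32 (-0.61 to -0.03) in naïve mice and did not pass the test (adjusted p = 0.118 and 0.221). In immunized mice the Tnfaip3 probe sets were at -0.01 and -0.09. Otulin, which cuts linear chains, was at -0.17 (adjusted p = 0.208) in naïve and at 0.07 (adjusted p = 0.833) in immunized mice. Of 46 measured deubiquitinases of the USP family with 122 probe sets, 10 probe sets of 5 genes, or 8.2%, were higher in naïve BALB/cByJ, with no lower one and a median of -0.01, against 2.68% of all probe sets higher. They included 1 of the 2 Usp25 probe sets and 2 of the 3 for Usp32. They also included 3 of the 7 for Usp7 and 3 of the 6 for Usp15. By 1 called probe set each, Usp25 was at 0.70 (SE 0.103, adjusted p = 0.00706) and Usp32 at 0.75 (adjusted p = 0.0083). Usp7 was likewise at 0.51 (adjusted p = 0.0142) and Usp15 at 0.59 (adjusted p = 0.032). The rest of the Usp7 probe sets lay between 0.29 and 0.46. Over both states Usp49 was higher too by 1 of its 2 probe sets, at 0.42 (adjusted p = 0.0371). None of the 10 was called with the erythroid covariate, where 25 of all 45037 probe sets were called in naïve mice. The USP probe sets called were 2, 2 and 1 without naïve BALB/cByJ replicate 3 or naïve BALB/cJ replicates 1 or 2. Of all probe sets, 265, 232 and 161 were called in those fits.

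Substrates and partners of OTU enzymes were mostly not called. Of 26 measured genes with 65 probe sets, 4 probe sets of 2 genes passed the test in naïve mice, all higher in BALB/cByJ, which is 6.15% of them against 2.68% of all probe sets, and the median was -0.03. These were 3 of the 7 probe sets of Usp7, already counted with the USP family, and 1 of the 2 of Rnf168. Rnf168, a ubiquitin ligase of the DNA damage response, was at 0.31 by that probe set (SE 0.0762, adjusted p = 0.0403). None of these 4 was called with the erythroid covariate, or without naïve BALB/cByJ replicate 3, naïve BALB/cJ replicate 1 or naïve BALB/cJ replicate 2. Those fits called 25, 265, 232 and 161 of all 45037 probe sets in naïve mice. Mavs, an antiviral adaptor on which human OTUD3 acts, was at 0.22 and 0.09 in naïve mice and at -0.25 and -0.01 in immunized mice, and did not pass the test. The 3 probe sets of Hspa5, a chaperone of the endoplasmic reticulum and also a substrate of human OTUD3, lay between -0.21 and 0.03 in naïve and between -0.22 and -0.12 in immunized mice, with no call. Of 2 measured genes for ubiquitin and its activating enzymes, Uba7, which activates the ubiquitin-like ISG15, was higher in naïve BALB/cByJ by 1 of its 3 probe sets at 0.40 (SE 0.0994, adjusted p = 0.0409). That call was lost after quantile normalization, with a trended and robust variance, with a block for late sample numbers and with only the groups compared. It was also lost with the erythroid covariate, and without any 1 array except immunized BALB/cByJ replicate 1 and immunized BALB/cJ replicates 2 and 3. Of 19 other deubiquitinases with 43 probe sets none was called in naïve or immunized mice, and Josd2 was higher over both states at 0.65 (SE 0.161, adjusted p = 0.0394). It was not called with the erythroid covariate, without the arrays high in pigment markers, or without any 1 array except naïve BALB/cByJ replicate 1, naïve BALB/cJ replicate 3, immunized BALB/cByJ replicate 1 and immunized BALB/cJ replicate 2. None of these lists held a call with immunization in either colony.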

How the data were processed

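Spleen RNA of 12 mice was measured on 12 arrays, 3 per group, grouped by the sample titles. Per the methods, the authors summarized the scans in GeneSpring by robust multi-array averaging (quantile normalization, then median polish). The deposited log2 values are centred, so that each probe set has a median of 0 over the 12 arrays. The base of the logarithm was read as log2, as this averaging gives. Because of the subtraction no filter on signal could be applied, and the number of arrays limits the precision. No column belonged to other samples. Of 45101 probe sets, 64 controls were left out. One limma 3.58.1 fit in R 4.3.3 over all arrays, with a mean for each group (lmFit, eBayes), gave the colony differences (naïve, immunized and over both states), the immunization differences and the difference of responses. A Benjamini-Hochberg adjusted p under 0.05 over all probe sets was called. SE and intervals came from that fit, which was tested on simulated data. The study's analysis of variance with Student-Newman-Keuls comparisons was an alternative, as were other normalizations, variances, covariates, blocks and arrays left out. Gene names came from the annotation of the arrays. Gene order came from the table of GRCm38.p6, of which no coordinates are given, since the array files name no build. Promoters, with their coordinates, came from RefSeq.

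The genes, the lists and the tests were chosen with earlier results of these data known. All member probe sets are described. Named from other lists were up to 4 called genes per list and contrast, the 3 measured genes nearest to Otud3 on either side and any called neighbour, and the 5 genes most and least like Otud3 by Pearson's r. The values given for Tnfaip3, Otulin, Mavs and Hspa5 were chosen after they were seen. Figures were made with Python 3.11.15 and matplotlib 3.10.9.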

Additional observations from a re-analysis of the deposited data

How the results depend on the processing

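The Otud3 difference over both states by 1436571_at kept its direction in every alternative run, between -3.70 and -3.50 with 1 array left out, and moved beyond the replicate spread only at the level of genes (-1.96). That of 1430046_at kept its direction too. Among the probe sets of the other members, 3 were called in naïve mice in the report. The number was 5 when arrays were weighted, and 1 without probe sets ending in _s_at, _x_at or _a_at or per gene rather than per probe set. It was 0 with the erythroid covariate, against a fold of 1.2 and by the analysis of variance of the methods. The naïve calls over all probe sets, 1976 of 45037 in the report, were 5950 with array weights and 1402 of 36082 without those endings. They were 25 with the erythroid covariate and 83 against a fold of 1.2. Over both states, 4 member probe sets became 2 with a replicate block, and 0 with the erythroid covariate and against a fold of 1.2. At the level of genes 1 gene was called. Of all probe sets, 2081 became 2316 with the replicate block, 47 with the covariate and 64 against a fold of 1.2. With 1 array left out the counts of member probe sets ranged from 0 to 3 in naïve mice and from 1 to 4 over both states. The naïve count was 0 without naïve BALB/cByJ replicate 3 or naïve BALB/cJ replicates 1 or 2. The naïve calls over all probe sets without those arrays were 265, 232 and 161. Over both states 1 member probe set was left without naïve BALB/cByJ replicate 3 or naïve BALB/cJ replicates 1 or 2. The same number was left without immunized BALB/cByJ replicates 2 or 3 or immunized BALB/cJ replicate 3. Between 620 and 979 of all probe sets were called over both states in those fits. The cause of these changes was not tested. The members' immunized colony, immunization and response counts stayed at 0 throughout. The naïve Otud5 call was also lost after quantile normalization (adjusted p = 0.0997), with the replicate block (0.0635) and with only the groups compared (0.061). The replicate numbers are shared between groups by number alone: arrays of the same number had correlated deviations from their group means between -0.289 and 0.368. A filter on dim probe sets was not run.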
